A study of Caenorhabditis elegans with 2 samples.

Results

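Among the 3000 regions of highest signal in the pooled list of FKH-3 ChIP-seq regions, a list that holds peaks together with background, 882 had their summit inside a protein-coding exon, and these 882 of the 30000 listed regions are described here. FKH-3 is a forkhead transcription factor of the nematode *Caenorhabditis elegans*. A region was kept when its summit lay in the coding sequence of a protein-coding gene, outside the stretch from 500 bp upstream to 100 bp downstream of every protein-coding transcript start. Summits in an untranslated region (UTR) or within 100 bp of a tRNA, snoRNA or snRNA gene were left out. The 882 regions were therefore selected on their pooled signal, so their signal and their height in the list describe the selection and are not findings. They made up 29.4% of the 3000, against 33.2% of the 27000 regions ranked lower (8955 regions). In each replicate's own list the shares were 32.5% against 33% in replicate 1 and 28.1% against 31.7% in replicate 2, so the lower share of the pooled list was nearly absent in replicate 1. Summits within 100 bp of a tRNA, snoRNA or snRNA gene made up 11.7% of the pooled 3000. In the rank ranges below they made up 0.5 to 2.25%, and their part in the difference was not tested. Those 8955 lower-ranked coding-exon regions, chosen by the same position criteria, stand beside the 882 members throughout.

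Chromatin immunoprecipitation followed by sequencing (ChIP-seq) was performed on whole young adult worms of strain OP594, 63 h after synchronisation as starved L1 larvae. Both samples carried the *unc-119* allele tm4063 on chromosome III and the integrated transgene wgIs594, which expresses FKH-3 with GFP and FLAG at its C-terminus. The worms were of mixed sex, the chromatin was sheared by sonication, and an antibody against GFP was used, although the antibody field of the labels names fkh-3. There were 2 biological replicates of 1 group and no second condition, so the comparisons are between regions and between replicates. The worms were not dissected, so signal from different tissues cannot be told apart, and the tagged protein came from a transgene added to the genome. Each replicate had a list of 30000 regions, as had the pooled replicates, and 441 pooled regions were past the threshold of the irreproducible discovery rate (IDR). They are exactly the 441 of highest pooled signal, so the IDR list acts here as a stricter cut on the same signal. The signal of a region is a deposited value without a stated unit, and it served only to rank regions within a list. The lists give no read counts, so depth is unknown, and regions are not replicates, so no test was run over them. Intervals in parentheses are exact 95% binomial intervals and cover counting error of regions only.

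Forkhead factors bind DNA through a winged-helix domain and are best known for binding at promoters and enhancers, where they recognise short AT-rich motifs related to GTAAACA. Protein-coding exons are not the usual place of such sites, since their bases are also under selection for the encoded protein. In ChIP-seq, a summit marks the position of most signal within a region.

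Sequences at some of the strongest coding-exon summits are shown first, because the summit is the only position within a region that the lists give. They are a selection. The *snpc-4* summits, the strongest of all, are not among them. C42D8.9, Y49A3A.3, *pals-26* and F31E3.12, which ranked between *xrn-2* and *swsn-1*, were also left out. Each line holds 30 bases of the coding strand, 5′ to 3′, from the RefSeq sequence of WBcel235 (ce11), with the summit at base 16 and the codon that holds the summit in capitals. The first line is *dos-3* at chrIII:835988-836017 (minus strand), the next *prmt-5* at chrIII:5230678-5230707 (plus strand), then *glr-2* at chrIII:7141608-7141637 (minus strand), *lelo-2* at chrIII:1420081-1420110 (minus strand), *xrn-2* at chrII:14155889-14155918 (plus strand), *swsn-1* at chrV:20241484-20241513 (minus strand) and *mnk-1* at chrII:10547470-10547499 (minus strand).
dos-3: cagatgacccacatAATcgcgatcatgcta
prmt-5: cccagcagaagtataAGCtctgttgaggca
glr-2: aaaggaattttgccaTCGaagccatggcag
lelo-2: gtgatgacgttgctcTTTttgcctgaaact
xrn-2: cccgtagattgtacaCAGcccaatccgaat
swsn-1: acaacaacaacatCAGgctcagcaggccca
mnk-1: gcgtcgacaccgtCAAcgtgaacgcgagac
The *swsn-1* window encodes a glutamine-rich stretch, with 6 of its 9 whole codons reading CAA or CAG.

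The forkhead motif was searched on both strands within 100 bp of the summit, as GTAAACA and its close relative GTAAATA, and in the forms that open with an A instead, which read ATAAACA for the first and ATAAATA for the other. It was found at 58 of 882 members (6.58%, interval 5.03 to 8.42%) and at 9.02% of the lower-ranked coding-exon regions. GC content also differed between these sets, and with the lower-ranked regions weighted to the members' GC content the share was 6.35%, within the members' interval. In the other classes among the 3000 the share ranged from 13.1% of 567 intronic summits to 17.8% of 146 UTR summits, with 15.6% of 512 promoter summits. Those classes were also poorer in GC, with medians of 38.6 to 45.3% against 47.3% in coding exons, and the part of GC in these differences was not tested. Over all 27000 lower-ranked regions the share was 13.9%. A match describes letters in a window and does not show a bound site, and a window without one says only that these letters are not in it. The motif nearest the summit, in capitals, is shown for 4 members of high signal, on the strand that reads the motif.
mnk-1: cattcttcaacGTAAATAtttcaccgagga
tag-115: tgctgacacccATAAATAcaacaaaccgga
srw-85: cgtcaaaaagtGTAAATAtatcgaaaattt
acs-2: cggatgagccaGTAAACAtgcaattcacaa
These lie at chrII:10546025-10546054 (minus strand, coding exon 3 of 7 of *mnk-1*), chrIV:13239222-13239251 (minus strand, coding exon 1 of 4 of *tag-115*), chrV:19430519-19430548 (plus strand, coding exon 2 of 5 of *srw-85*) and chrV:15568236-15568265 (plus strand, coding exon 3 of 6 of *acs-2*). The motif was 13, 55, 33 and 44 bp from the summit, in that order. They were picked after their sequences had been seen, from members of high signal whose window lay within the coding exon.

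The share of coding-exon summits depended on how far down the list one looked. It was 7% among pooled ranks 1 to 100, 19.9% from there to rank 441, 24.5% in ranks 442 to 1000 and 31.4% in ranks 1001 to 2000. From there it stayed between 32% and 35.6% down to rank 30000. The first 100 regions were mostly at small RNA genes (56%), whose share fell to 3.6% in ranks 2001 to 3000. The share was thus lowest at the top of the list, and most members came from the lower part of the 3000, with 356 in ranks 2001 to 3000 and 75 among the first 441. The 75 are the members past the IDR threshold (8.50% of members, against 14.7% of all 3000), and since that threshold follows the pooled rank used for the selection, nothing is read from these shares.

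**Figure D1:**
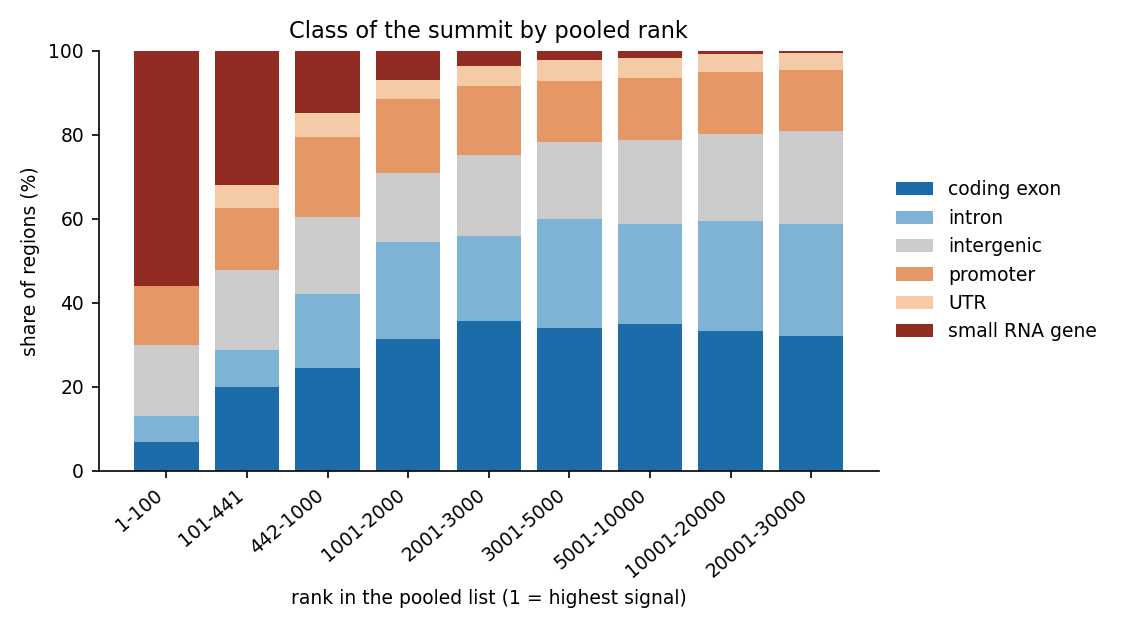
Share of pooled regions (vertical axis, %) whose summit fell in each class, by rank in the pooled list (horizontal axis). Coding exons rise from 7% of the first 100 regions to 35.6% of ranks 2001 to 3000, while small RNA genes fall from 56% to 3.6%.

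The signal of the members ran from 75.2 to 3317 with a median of 84.7, and the −log10 of the authors' q-value from 0.68 to 2.06 with a median of 0.967. These values chose the members or moved with those that did, and are given as a description. The median q-value was above the cuts commonly used to call single peaks, and the list holds peaks together with background. At the lower end, the last members inside the 3000 were in *gst-30*, a glutathione transferase gene (rank 2990, signal 75.2), and T20B12.7, an anamorsin homologue (rank 2992, signal 75.2). Just outside were regions in *unk-1* (rank 3002, signal 75.1) and C16C10.13 (rank 3005, signal 75.1). The cut at 3000 thus fell in a stretch of nearly equal signal.

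Replicate lists were read at the pooled summit, taking the best rank of any replicate region that held it. The pooled list was made from both replicates, so these ranks are not independent of the selection. In replicate 1, 399 members (45.2%) lay in a top 3000 region, against 49% of all 3000. In replicate 2, 564 (63.9%) did, against 70.1%. A top 3000 region of both replicates held 220 members (24.9%, interval 22.1 to 27.9%), against 31.4% of all 3000. The value over all 3000 lay above the members' interval, and the 352 regions at small RNA genes, of which 60.8% were shared, are part of that whole. Introns at 24.2%, promoters at 30.3%, intergenic summits at 31.4% and UTRs at 32.2% lay closer to the coding exons.

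Most of the remaining members were high in 1 replicate only. There were 179 (20.3%) in the top 3000 of replicate 1 alone, 344 (39%) in that of replicate 2 alone and 139 (15.8%) in neither. Of all 3000 regions, 371 were in neither, with 49% in the top 3000 of replicate 1 and 70.1% in that of replicate 2. Every member was listed in at least 1 replicate, with 56 not listed in replicate 1 and 6 not listed in replicate 2. Replicate 1 listed 93.7% of members and 93.5% of all 3000, and replicate 2 listed 99.3% and 99%. The median rank was 3324 in replicate 1 (quartiles 1148 and 7421) and 2148 in replicate 2 (quartiles 1024 and 3988). Over all 3000 the median ranks were 2713 and 1716. Of the 820 members in both lists, 494 (60.2%) ranked better in replicate 2. The lean to replicate 2 was thus present in the whole 3000 and was not particular to coding exons. The summits of the 2 lists were close to the pooled summit, with a median offset of 26 bp in replicate 1 and 10 bp in replicate 2.

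Sharing followed the pooled rank. All 7 members in ranks 1 to 100 were in the top 3000 of both replicates, as were 60 of 68 (88.2%) of those from there to rank 441. The share was 82 of 137 (59.9%) in ranks 442 to 1000, 59 of 314 (18.8%) in ranks 1001 to 2000, and 12 of 356 (3.37%) in ranks 2001 to 3000. The lower part of the 3000 thus held coding-exon regions that were strong in 1 replicate or moderate in both. The pooled rank was made from both replicates, so a fall of this kind is built into the order. The same shares were not counted over all regions, so nothing about coding exons is read from the fall. Even among the members past the IDR threshold, *hip-1* ranked 10276 in replicate 1 and 148 in replicate 2 and *mak-1* was not listed in replicate 1 and ranked 194 in replicate 2. These were named after their values had been seen.

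**Figure D2:**
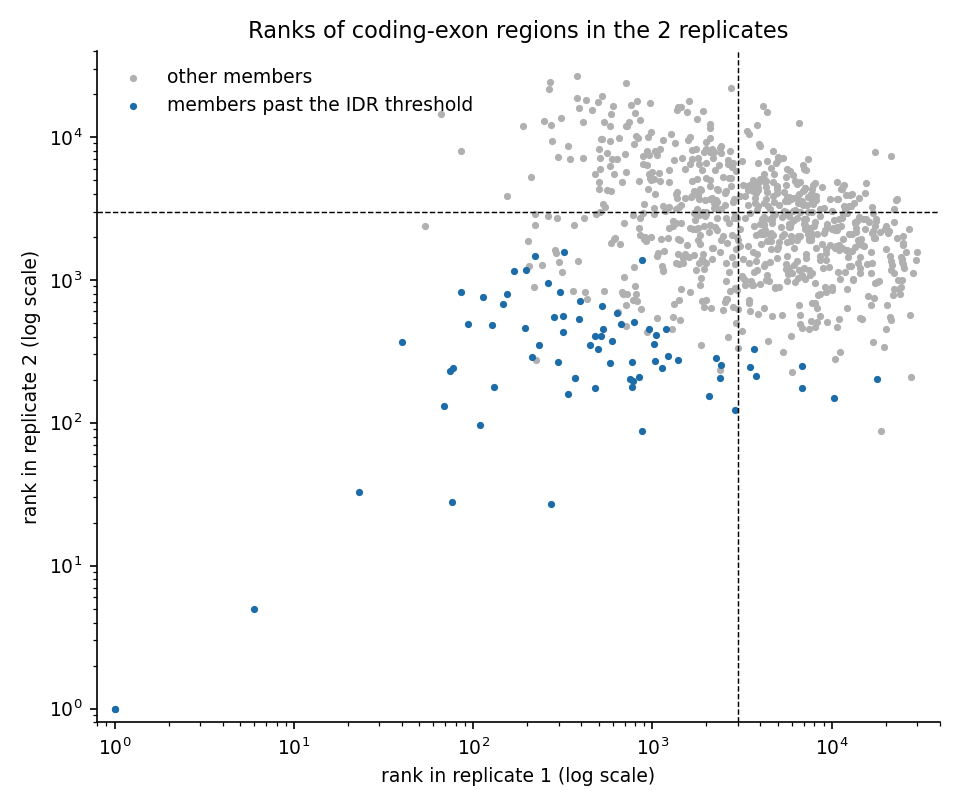
Rank of each member in replicate 1 (horizontal axis, log scale) and replicate 2 (vertical axis, log scale) for the 820 members in both lists, with members past the IDR threshold (pooled rank 441 or better) in blue and dashed lines at rank 3000. Most blue points fill the lower left, 67 of them within rank 3000 of both, and most grey points are beyond rank 3000 in at least 1 replicate.

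The strongest members had high ranks in both replicates. The pooled ranks 1 and 2 were 2 summits of 1 interval in *snpc-4*, which encodes a subunit of the complex that starts transcription of small nuclear RNA genes. They lay in coding exons 3 and 2 of 13, with signals of 3317 and 1701, and both fell in the top region of replicate 1 and of replicate 2. The next member, *dos-3*, named as a Delta and OSM-11-like protein, ranked 6 pooled, 6 in replicate 1 and 5 in replicate 2, with its summit in the last of 11 coding exons. These were the only members among the first 10 pooled regions.

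The other 4 members among the first 100 pooled regions also ranked high in both replicates. *prmt-5*, an arginine methyltransferase gene, had ranks of 24 pooled, 23 in replicate 1 and 33 in replicate 2, with the summit in coding exon 1 of 9, 123 bp downstream of a transcript start. The glutamate receptor gene *glr-2* had ranks of 40, 76 and 28, in exon 12 of 20 and 3292 bp from the nearest start. *lelo-2*, annotated with a major facilitator transporter domain, had ranks of 54, 271 and 27, in the last of 7 coding exons. That summit was also 276 bp downstream of a transcript start of *lelo-2*. *xrn-2*, which encodes a nuclear exoribonuclease, had ranks of 93, 109 and 97, in exon 1 of 7. The place of the summit therefore varied among them, from the start of the coding sequence to its last exon.

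Of the other members with the 15 highest signals, C42D8.9 and Y49A3A.3 had the summit in the first coding exon, with ranks of 77 and 130 in replicate 1 and 242 and 177 in replicate 2. *pals-26*, C17G10.6 and *ivd-1*, which encodes isovaleryl-CoA dehydrogenase of leucine breakdown, had it in the last coding exon. Their ranks were 336, 839 and 128 in replicate 1 and 159, 209 and 483 in replicate 2. F31E3.12 ranked 372 and 204, *swsn-1*, a SWI/SNF chromatin remodelling subunit, 869 and 88, and the kinase gene *mnk-1* 69 and 131, each in an internal coding exon. Every one of these 15 was in the top 1000 of both replicates.

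Other members differed widely between replicates. A second region of *swsn-1* (pooled rank 1555) ranked 18908 in replicate 1 and 88 in replicate 2 and lay in the same exon as the stronger one. A single replicate 2 region held both *swsn-1* summits, so its rank of 88 was credited to both. The summit of that replicate 2 region was 57 bp from the stronger pooled summit. *asp-1*, an aspartic protease gene (pooled rank 824), ranked 27773 and 208. In the other direction, another region of *mnk-1* (pooled rank 1443) ranked 66 and 14404, *icl-1* (539) ranked 86 and 7897, and *pigo-1* (2348) ranked 268 and 24301. These 5 have the largest ratios between the replicate ranks, and with 2 replicates neither value can be called the typical one.

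The members lay in 819 genes, of which 767 held 1 member, 43 held 2, 7 held 3 and 2 held 4. The 2 genes with 4 were *vab-10*, a spectraplakin that links the cytoskeleton to attachment structures, and *icl-1*, the bifunctional enzyme of the glyoxylate cycle, which lets worms make sugar from fat. The 4 *icl-1* summits lay in coding exons 2, 3, 3 and 4 of 5. Their ranks in replicate 1 were 2458, 314, 19526 and 86 and in replicate 2 618, 1140, 338 and 7897, and 2 of the 4 were in the top 3000 of both. The yolk protein gene *vit-6* held 3 members, in coding exons 2, 3 and 4 of 5, with ranks of 212, 1387 and 1234 in replicate 1 and 290, 1942 and 2310 in replicate 2, all within the top 3000 of both. *mnk-1*, *lpin-1*, *appg-1*, *eel-1*, *ell-1* and *gei-4* held 3 each. Neighbouring regions of 1 gene can share fragments and are not separate observations of it. The tagged gene *fkh-3* and the mutated gene *unc-119* each held 0 coding-exon regions in the pooled list under these criteria.

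By exon position, 91 members (10.3%, interval 8.39 to 12.5%) were in the first coding exon, 551 (62.5%, 59.2 to 65.7%) in an internal one, 223 (25.3%, 22.4 to 28.3%) in the last, and 17 (1.93%) in the gene's only coding exon. In the lower-ranked coding-exon regions the shares were 5.93%, 77%, 16.1% and 0.96%. For first and last coding exons these values lay below the members' intervals, and for internal exons above. The coding share of each exon type was not counted over the genome, so this compares stronger with weaker regions only. With lower-ranked regions weighted to the members' GC content, the shares were 6.22% in first, 74.2% in internal and 18% in last coding exons. The same order held in each replicate's own list, where last coding exons held 24.3% of the top 3000 coding-exon regions against 15.5% of the lower ones in replicate 1, and 25.8% against 16.1% in replicate 2. First coding exons held 9.03% against 6.59% and 9.38% against 6.51%. The first-exon share depended on the criteria, and was 5.15% against 2.93% of lower-ranked regions with a promoter window of 1000 bp upstream and 200 bp downstream, 15.6% against 6.12% with the top 1000 and 16% against 6.25% with the top 441. It lay above the lower-ranked share in each of these settings.

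Members also had fewer coding exons, with a median of 6 against 7, and a gene with fewer exons has a larger share of first and last ones. Among genes with 9 or more coding exons, 13.6% of members and 6.42% of lower-ranked regions lay in the last exon. With 6 to 8 exons the shares were 22.4% and 13%, and with 4 or 5 they were 28.2% and 21.9%. In genes with 3 coding exons the shares were close, at 40.2% and 37%, and with 2 exons the last held 62.9% of members and 70% of the lower-ranked regions. The excess of last exons was therefore larger in genes with more than 3 coding exons, though the groups with 2 and 3 exons held only 62 and 102 members. First coding exons held a larger share of members in every group, from 37.1% against 30% with 2 exons to 3.83% against 2.26% with 9 or more.

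Last coding exons were most frequent in the upper part of the 3000, at 33.8% after rank 100 and up to rank 441, and 34.3% in ranks 442 to 1000, while the 7 members of ranks 1 to 100 had 28.6%. They made up 24.8% of ranks 1001 to 2000, 20.5% of ranks 2001 to 3000 and 14.3% of ranks 20001 to 30000. Members in last and first coding exons were in both top 3000 sets in 33.2% and 37.4% of cases, against 20.1% of those in internal exons. Their median pooled ranks were 1474, 1532 and 1825, so the pooled rank moved with this share, and its part was not tested.

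**Figure D3:**
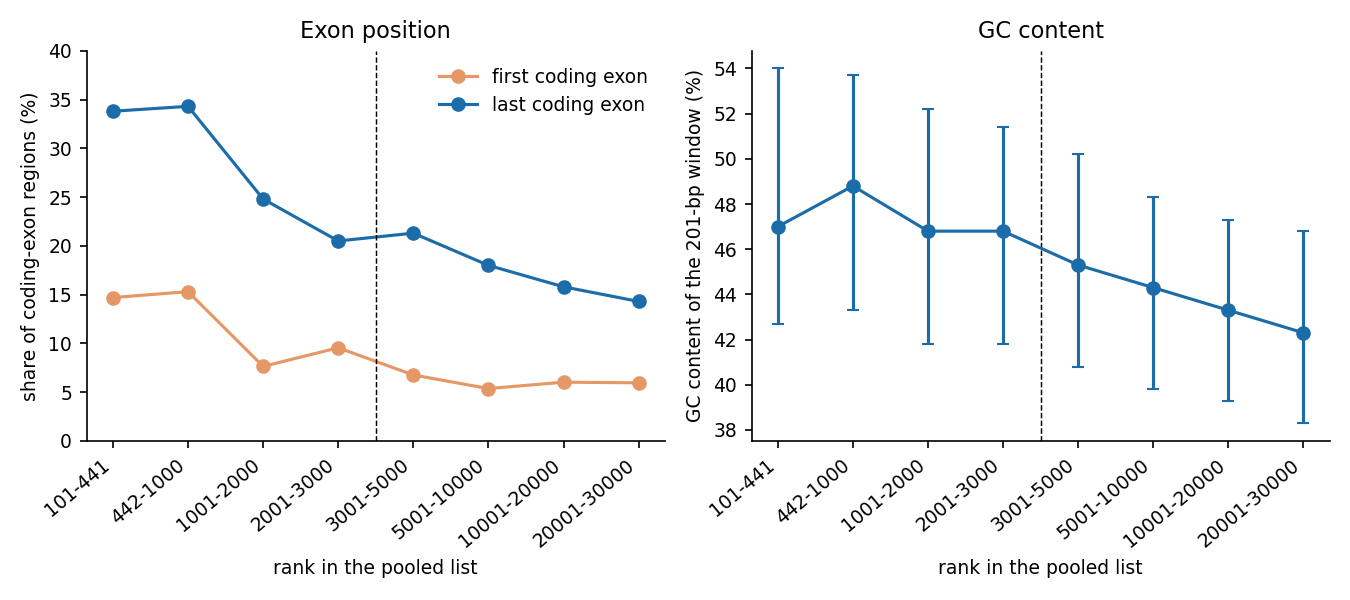
Share of coding-exon regions in first and last coding exons (left, %) and median GC content with quartiles of the window of 100 bp on each side of the summit (right, %), by rank in the pooled list beyond rank 100. The dashed line marks rank 3000. Last exons fall from 33.8% to 14.3% and the median GC content from 47% to 42.3%.

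Along the coding sequence, the median member summit was at 59.4% of its length, against 53.6% in the lower-ranked regions. The final 10% of the coding sequence held 110 members (12.5%, interval 10.4 to 14.8%) against 8.92%, and the first 10% held 58 (6.58%, 5.03 to 8.42%) against 5%. The stretch from 30 to 40% held 60 (6.80%, 5.23 to 8.67%) against 10.4%, and that from 40 to 50% held 72 (8.16%) against 11.5%. Fewer coding bases followed the summit in members, with a median of 518 against 688. Their coding sequences were shorter, with medians of 1467 and 1641 bp, while the exon that held the summit was longer, at 368 against 321 bp.

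**Figure D4:**
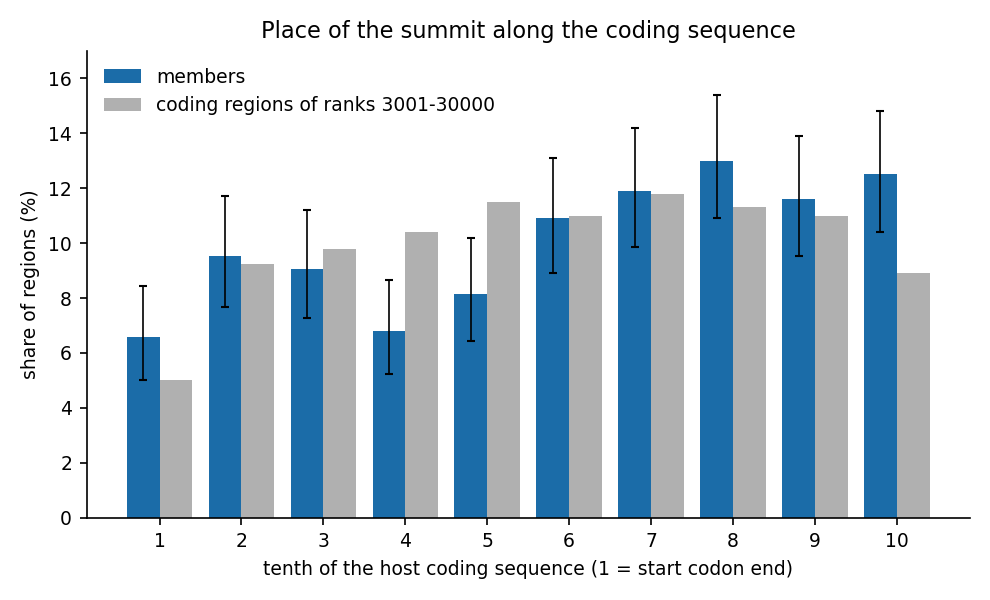
Share of summits (vertical axis, %) in each successive 10% of the host coding sequence (horizontal axis), for the 882 members (blue, exact 95% intervals) and the 8955 lower-ranked coding-exon regions (grey). Members lie above the grey bars in the last bin (12.5% against 8.92%) and below them in the fourth (6.80% against 10.4%).

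Summits near a transcript start were excluded only up to 100 bp downstream of it. In the next 100 bp, up to 200 bp downstream, lay 78 members (8.84%, interval 7.05 to 10.9%) against 5.39%, or 5.52% when weighted to the members' GC content. Beyond that and up to 500 bp there were 149 (16.9%) against 13.5%, and from there to 1000 bp 168 (19%) against 18.4%. More than 1000 bp from any start were 455 members (51.6%) against 58.4%. The median distance to the nearest start was 1057 bp in members and 1211 bp in the lower-ranked regions, so the typical member lay nearer to a start. The host gene had a top 3000 summit in its own promoter window for 39 members (4.42%) and for 4.60% of the lower-ranked regions.

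The windows of 100 bp on each side of member summits were richer in GC, with a median of 47.3% (quartiles 41.8 and 52.2%) against 43.3% (39.3 and 47.8%). A GC content of 55% or more was found at 138 members (15.6%, interval 13.3 to 18.2%) and at 4.76% of the lower-ranked regions. The difference was present in each replicate's own list, with medians of 45.8 and 42.8% in replicate 1 and 46.8 and 42.8% in replicate 2. The part of GC content in the signal was not tested. These windows, also used for the motif, were not confined to the coding exon. The median distance from the summit to the nearer exon edge was 102 bp in members and 79 bp in the lower-ranked regions. Many windows therefore reached beyond the exon, more often in the lower-ranked set, and the part of this in the GC difference was not tested. Recurring sequence was rare, and 20 members (2.27%, interval 1.39 to 3.48%) held a 36-base word found elsewhere in the genome, against 4.70%.

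Host genes were read against 33 lists of gene families and pathways, written with earlier results of these data known and with the assignment of gene names corrected after a first count. Of the members, 289 (32.8%) were in some list, against 30.5% of the lower-ranked regions. All 33 lists had a member, and 17 had a larger share of members than of lower-ranked regions. The intervals given for single lists were not adjusted for the number of lists read. A lower-ranked share outside such an interval is therefore a description and not a test. Over all 9837 coding-exon regions, 8.97% were in the 3000.

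Cuticle collagens, which form the worm's outer coat and are built of glycine-rich repeats, held 42 members in 42 genes (4.76%, interval 3.45 to 6.38%) against 1.43%. Of all coding-exon regions in these genes, 24.7% were thus among the 3000. Weighted to the members' GC content, the lower-ranked share was 4.27%, inside the members' interval. Below 50% GC, where 582 members lay, collagens were 0.172% of members and 0.211% of the lower-ranked regions. Within windows of 50 to 55% GC the shares were 4.94% and 2.63%, and from 55 to 60% they were 17.6% and 12.8%. From 60% upward they were 36.2% of members and 43.4% of the lower-ranked regions. The collagen share therefore rose with GC content in both sets, and the part of GC in it was not tested. The share of glycine codons around the summit was 28.4% in both sets. In each replicate's own list the share was 3.08% against 1.30% in replicate 1 and 5.46% against 1.35% in replicate 2.

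The collagen members ranked from 375 to 2944 in the pooled list, from 249 to 8977 in replicate 2 with a median of 1761, and from 362 to 24030 in replicate 1 with a median of 2354, where 2 were not listed. There were 10 in both top 3000 sets and 2 past the IDR threshold. *col-108* ranked 375 pooled, 6855 in replicate 1 and 249 in replicate 2, *col-173* ranked 411, 951 and 450, and *col-103* ranked 586, 11072 and 313. The last coding exon held 22 of the 42. The 30-base windows at the 8 strongest collagen summits held from 0 to 4 in-frame glycine codons, with 0 in *col-173*, 1 in *col-40*, 2 in *col-103* and 3 or 4 in the other 5. The first lines below, picked after their sequences had been seen, show windows rich in the repeat, with the glycine codons in capitals, and the last is that of *col-173*, which has none.
col-108: gggatgctGGAtccgacGGGagccctGGAg
col-107: GGAaacgccGGAcaagacGGAgccccaGGA
col-183: tGGAccagccGGAccagcgGGAccagacgg
col-173: ctgatcaattttgctttgaatgccttccag
They lie at chrIV:1769255-1769284 (plus strand), chrIV:1549270-1549299 (plus strand), chrX:13466936-13466965 (minus strand) and chrX:6875783-6875812 (minus strand), on the coding strand, and hold 3, 4, 3 and 0 such codons. Collagen genes resemble each other. The median share of 36-base words in the collagen members' windows that recur in the genome was 0, as it was in all 33 lists. The part of sequence similarity in the signal was not tested.

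Genes of core metabolism held 28 members in 20 genes (3.17%, interval 2.12 to 4.56%) against 1.56%, or 1.68% when weighted to the members' GC content. They were led by *ivd-1* and by *acs-2*, a mitochondrial acyl-CoA synthetase gene that ranked 463 pooled, 1988 in replicate 1 and 724 in replicate 2. In each replicate's own list the share was 3.49% against 1.40% and 2.85% against 1.52%, above the lower-ranked share in both. The 28 include the 4 of *icl-1*, and 10 were in both top 3000 sets.

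Of the smaller lists, 2 had intervals whose lower end lay above the lower-ranked share. Splicing and RNA-binding genes held 11 members (1.25%, interval 0.624 to 2.22%) against 0.603%, led by *snrp-200*, a helicase of the U5 spliceosomal particle, in coding exon 1 of 12 (ranks 273, 782 and 195, in the order pooled, replicate 1, replicate 2), and by the SR protein genes *rsp-8* (342, 168 and 1151) and *rsp-2* (430, 521 and 656). Weighted to the members' GC content the lower-ranked share was 0.789%, inside the interval. Histone genes held 4 (0.454%, interval 0.124 to 1.16%) against 0.101%. All 4 are linker histones, in the last coding exon, and include *hil-2*, *hil-4* and *hil-3*, with pooled ranks of 1301, 1568 and 2177. Weighted to GC the share was 0.14%, also inside the interval. Counts of this size leave wide intervals.

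Yolk protein genes held 4 members, 3 of *vit-6* and 1 of *vit-2* (0.454%, interval 0.124 to 1.16%) against 0.134%, and 3 of the 4 were in both top 3000 sets. Genes for small RNA gene transcription held 5 (0.567%, interval 0.184 to 1.32%) against 0.235%, and 2 of these are the *snpc-4* summits of 1 interval. *rpc-2*, a subunit of RNA polymerase III, ranked 302 pooled, 85 in replicate 1 and 817 in replicate 2, in coding exon 1 of 9. Heat shock proteins held 8 (0.907%, interval 0.392 to 1.78%) against 0.424%, led by *hsp-110* (481, 775 and 727), *hsp-60* (491, 2997 and 629) and *hsp-90* (723, 3520 and 602). For these 3 lists the lower-ranked share was inside the members' interval.

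Among regulators, the forkhead family held 2 members (0.227%, interval 0.0275 to 0.817%) against 0.101%, a value inside the interval. The region in *fkh-10* ranked 655 pooled, 1324 in replicate 1 and 673 in replicate 2, in the last of 3 coding exons, and that in *daf-16*, the FOXO factor of insulin signalling, ranked 2410, 11007 and 1743 in coding exon 1 of 6. Other transcription factors held 15 (1.70%, interval 0.955 to 2.79%) against 0.983%, led by the TEA domain gene *egl-44* (230, 593 and 370) and the bHLH gene *mxl-3* (372, 3494 and 246). Nuclear hormone receptors held 6 (0.680%) against 1.16% and homeobox genes 3 (0.340%) against 0.458%.

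In the other direction, 4 lists had intervals whose upper end lay below the lower-ranked share. Seven-pass chemoreceptors, a large family read out mostly in sensory neurons, held 7 (0.794%, interval 0.320 to 1.63%) against 2.51%, or 1.67% when weighted to the members' GC content. Transport proteins and ATPases held 16 (1.81%, interval 1.04 to 2.93%) against 3.15%, or 2.80% weighted, and in replicate 2's own list the shares were 2.97% and 3.11%. Endocytosis and trafficking genes held 5 (0.567%, interval 0.184 to 1.32%) against 1.34%, or 1.26% weighted. The weighted values of these last 2 lists lie inside the members' intervals. Basement membrane and matrix genes held 6 (0.680%, interval 0.25 to 1.47%) against 1.49%, or 1.90% weighted. In replicate 2's own list the matrix share was 1.66% against 1.39%, so that list's lower share was not found there.

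**Figure D5:**
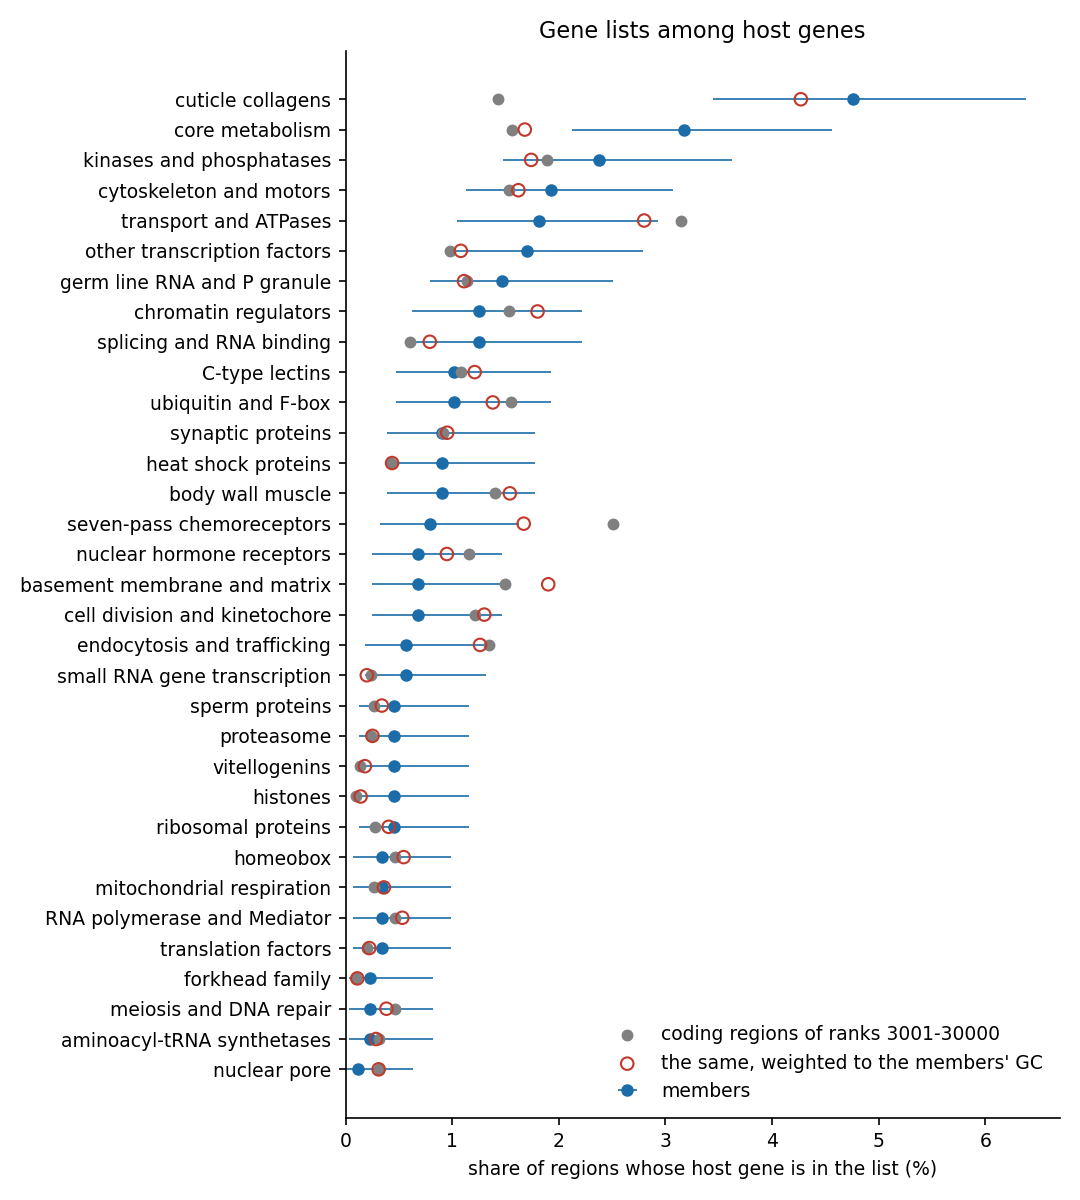
Share of regions whose host gene is in each of the 33 lists (horizontal axis, %), for the 882 members (blue, exact 95% intervals), the lower-ranked coding-exon regions (grey) and the same regions weighted to the members' GC content (red circles). Cuticle collagens stand farthest from the grey point, at 4.76% against 1.43%, and the red circle for them is at 4.27%.

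Some coding-exon summits also lay on a noncoding RNA gene of another kind than those left out. There were 11 such members (1.25%, interval 0.624 to 2.22%) against 0.246%, or 0.312% weighted to the members' GC content. For 10 of the 11 the noncoding gene was on the strand opposite to the host, and for 1 there were noncoding genes on both strands. The strongest were *glr-2* with B0280.22 and C17G10.6 with C17G10.14. ChIP-seq does not tell the strands apart, so for these regions the coding exon cannot be told apart from the noncoding gene, and 3 of the 11 were in both top 3000 sets.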

How the data were processed

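FKH-3 ChIP-seq was analysed from region lists in narrowPeak format on ce11. The deposited files comprise 1 list of peaks and background per replicate, 1 for the pooled replicates, and the pooled regions past the IDR threshold. The deposited signal (column 7) has no stated scale and served only for ranks, and the lists also give the authors' −log10 q-value. Aligner and peak caller: not given in the sources used here. Depth is unknown, since no read counts are in the lists. No control was analysed here. The ce10 lists were not used.

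Ensembl 115 models of WBcel235 (the same assembly as ce11) placed each summit, and the RefSeq sequence gave GC content and motifs. All 30000 pooled regions lay within its chromosomes. The host transcript was the one with the longest coding sequence, and RefSeq product names matched 819 of 819 host genes. A pooled region counted as shared when its summit lay in a replicate region. GC weighting used bins of 5 percentage points. The work used scipy 1.17.1, pandas 2.3.3, numpy 2.4.6 and matplotlib 3.10.9 under Python 3.11.15, and the annotation steps were tested on simulated data.

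The members and gene lists were chosen with earlier results of these data known. Named genes were the 15 members of highest signal, hosts with 3 or more members, up to 3 members per list, the nearest regions on each side of the 3000 cut, and the 5 members whose replicate ranks differed most. Alternatives were other cuts, windows, sharing rules and each replicate alone.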

Additional observations from a re-analysis of the deposited data

How the results depend on the processing

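Of the recomputed summary values, gene list shares apart, 62 stayed within the main value's spread or interval and 35 moved. With the gene list shares included, 100 stayed and 50 moved. With IDR regions only, there were 75 members (17% of summits), at a median of 891 bp from a start, with 16% in first, 49.3% in internal and 33.3% in last coding exons, and 21.3% on chromosome II, 26.7% on III, 16% on V and 8% on X. With the top 1000, there were 212 members (21.2%), a median GC of 48.3%, a median of 840 bp, 15.6% in first, 49.1% in internal and 34% in last exons, 21.2% on III, 8.49% on X, and 32.1% in the top 1000 of both replicates. With the top 5000, there were 1562 (31.2%), a median GC of 46.3% and 65.7% in internal exons. A promoter window of 1000 and 200 bp gave 24.6% of summits, 1293 bp, 5.15% first and 66.5% internal. Windows of 50 bp on each side gave a median GC of 48.5%. The forkhead motif within 250 bp was at 24.9% of members and 25.8% of lower-ranked regions. Counting summits within 100 bp as shared gave 20%. In either replicate alone, the lowest and highest values were 28.1 and 32.5% for the coding share, 45.8 and 46.8% for GC, 15.3 and 17.9% for chromosome II and 14.4 and 16.2% for X. The cause of these moves was not tested, beyond the smaller or larger set of regions that each setting takes.

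Gene list shares in each replicate alone, and lower-ranked exon shares under other settings, were added after seeing the data. No paired analysis was possible because only 1 group was sampled. Unknown depth limits every rank, and 2 replicates estimate the spread of a single region poorly.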

Other observations

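Some features of the member windows belong to no comparison above. Members were spread over the chromosomes much as lower-ranked coding-exon regions were, with 20.3% on V (22.1% of the lower-ranked), 18.3% on II (17.1%), 17.6% on III (14.6%), 15.1% on I (14.8%), 15.1% on IV (14.9%) and 13.7% on X (16.5%). Chromosome III lay above the lower-ranked share and X below it by more than the counting interval, at 15.1 to 20.2% and 11.5 to 16.2%. Weighted to the members' GC content, the lower-ranked shares were 15% on III and 16.1% on X, the latter inside the interval. In each replicate's own list the X share was 16.2% against 16.5% in replicate 1 and 14.4% against 16.4% in replicate 2. The lower share on X was thus nearly absent in replicate 1.

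Among all 2080 words of 6 bases, read on both strands, 3 differed by more than 4 percentage points from the lower-ranked share weighted to the members' GC content. ATCCAC was in the window of 19.6% of members against 14.6%, ATGGAG in 22.2% against 18.1%, and ATTTTC in 20.3% against 25.3%. Genes of the pqn family, named for glutamine- and asparagine-rich stretches and looked at after the *swsn-1* sequence had been seen, held 8 members (0.907%, interval 0.392 to 1.78%) against 0.514%.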
